A study of Mus musculus with 69 samples.

Results

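Hypothalamus of 7 older female mice was compared between 2 genotypes, 4 libraries from *Zeb1*_200H mice and 3 from *Zeb1*_200M mice, and these libraries were chosen by their labels from the 69 of the series. All were C57BL/6J females, aged 28 to 36 weeks, taken after a breeding trial and in proestrus, the stage of the estrous cycle before ovulation. *Zeb1*_200H mice carry base changes in the sites for the miR-200a and miR-200b families in the *Zeb1* 3′ UTR on 1 allele, and *Zeb1*_200M mice carry them on both. The change is a knock-in at the gene itself, driven by no transgene promoter and present in every cell of the body, and the animals of the cohort came from 2 independent embryonic stem cell clones and their intercross. The 4 WT libraries of the same tissue and cohort, from females with 2 unedited alleles, are given for reference. The question was which hypothalamic transcripts differ when the second allele is also freed from miR-200.

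ZEB1 and ZEB2 are zinc finger transcription factors that repress epithelial genes, the genes of the miR-200 microRNAs among them, and miR-200 in turn represses the *Zeb1* and *Zeb2* transcripts, so that each side of the loop lowers the other. In the hypothalamus the loop is best known from the neurons that make gonadotropin-releasing hormone (GnRH), the peptide through which the brain drives the pituitary and ovary. A microRNA finds its target mainly through its seed, bases 2 to 8 from the 5′ end. The mature miR-200 sequences are shown because the edited sites in *Zeb1* are the ones that pair with their seeds. The sequences are from RefSeq (GRCm38.p6), with the seed in capitals. Both members of the miR-200a family share 1 seed:
mmu-miR-141-3p: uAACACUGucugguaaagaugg
mmu-miR-200a-3p: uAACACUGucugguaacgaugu
The 3 members of the miR-200b family share the other seed:
mmu-miR-200b-3p: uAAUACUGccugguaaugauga
mmu-miR-200c-3p: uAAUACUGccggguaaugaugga
mmu-miR-429-3p: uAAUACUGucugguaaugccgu
The 2 seeds differ at 1 base, position 4 counted from the 5′ end. miR-200b, miR-200a and miR-429 lie together on chromosome 4 (chr4:156055685-156055706, chr4:156054911-156054932 and chr4:156053916-156053937, minus strand), and miR-200c and miR-141 on chromosome 6 (chr6:124718324-124718346 and chr6:124717917-124717938, minus strand).

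The 7 libraries held 10189605 to 13917738 counts each, and the 4 WT libraries 10764641 to 12891711. Every one of 25 transcription factors that mark hypothalamic neurons, such as *Nkx2-1*, *Otp* and *Sim1*, passed the filter on low counts. Their summed level was 393 to 435 CPM (counts per 1e+06 counts, scaled by TMM) in 200H and 362 to 426 CPM in 200M. At an unadjusted p under 0.05 by edgeR, 0 of them were higher in 200M (against 9.3% of all genes) and 5 lower (against 10.2%). The 5 were *Foxb1*, *Lhx9*, *Dlx1*, *Sim1* and *Dlx2*. The median log2 difference of the 25 was −0.01, and −0.18 without 200M replicate 2. Single factors varied more between libraries than their sum. *Nr5a1* was at 28.2 CPM in 200M replicate 2 and at 11.3 to 14.3 CPM in the other 200H and 200M libraries. *Lhx6* was at 36.5 CPM in 200H replicate 4 and 32.1 CPM in 200M replicate 3, against 10.1 to 21.1 CPM in the others of these genotypes. Whether the dissected pieces of tissue differed was not tested. Some libraries stood apart. 200H replicate 4 had 0.316% of its counts in 5 features (*CT010467.1*, *Mir6236*, *Gm15564*, *Gm23935* and *Lars2*), against 0.0153 to 0.0439% in the other 10, and it had the highest pituitary *Gh* (39.7 CPM) and *Prl* (24.6 CPM). 200H replicate 2 was far higher than the rest for immunoglobulin transcripts (*Igkc* 45.7 CPM, at most 4.00 CPM elsewhere). 200M replicate 1 had 192 CPM of the dopamine transporter *Slc6a3*, which was 5.34 to 53.8 CPM in the others. 200M replicate 2 lay farthest out on the first principal component of the 11 libraries, which held 31.5% of the variance.

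No gene passed the test between the genotypes, while transcript length went together with the direction of the difference across the whole table. The edgeR quasi-likelihood test with Benjamini-Hochberg adjustment called 0 of 16156 genes at an adjusted p under 0.05, and the smallest adjusted p was 0.14. At an unadjusted p under 0.05, 1503 genes (9.3%) were higher in 200M and 1641 (10.2%) were lower. The libraries of the genotypes did not overlap at 1259 genes higher in 200M (7.79%) and 1382 genes lower (8.55%). DESeq2 on the same counts called 505 genes (3.13%), of which 136 were raised (0.842%) and 369 lowered (2.28%), and the limma-voom test with sample weights called 23, all of them among the DESeq2 calls. The DESeq2 number rested on single libraries, ranging from 57 without 200H replicate 3 and 80 without 200M replicate 2 to 1009 without 200M replicate 1, so below a gene is described as higher or lower, and any call is credited to the tool that made it.

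*Zeb1*, the edited gene, was slightly lower in 200M than in 200H. Its level was 133, 126, 134 and 135 CPM in the 200H libraries and 120, 107 and 112 CPM in the 200M libraries, so that the groups did not overlap. The WT libraries held 123 to 143 CPM. The log2 difference was −0.22 (SE 0.072), with an unadjusted p of 0.0106 and an adjusted p of 0.156 by edgeR, and DESeq2 gave an adjusted p of 0.0766. *Zeb1* lies at chr18:5591860-5775467 on the plus strand (GRCm38), and its longest annotated transcript has 5801 bases. With the trend on longest-transcript length removed (below), the difference was −0.08, with an adjusted p of 0.599. The counts sum whole genes without regard to strand, so they do not distinguish the edited allele. Exons of the predicted gene *Gm10125* overlap those of *Zeb1*, and how reads in the overlap bear on the count was not tested. *Zeb1* did not pass the threshold in any of 17 alternatives, in which the log2 difference ranged from −0.26 to −0.08.

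*Zeb2*, the paralog in the same loop, was also lower in 200M at an unadjusted p of 0.0141 by edgeR (adjusted p 0.168). Its level was 54.0, 56.2, 55.5 and 60.9 CPM in 200H and 47.7, 29.6 and 49.6 CPM in 200M, a log2 difference of −0.41 (SE 0.14), and −0.22 without 200M replicate 2. The 200M libraries lay below every 200H library, with replicate 2 lowest, but WT libraries at 45.5 to 53.9 CPM spanned 2 of the 200M values. Its longest transcript has 9124 bases, and with the length trend removed the difference was −0.18 (edgeR adjusted p 0.568). The exons of *Zeb2* overlap 3 other annotated genes, its antisense transcript *Zeb2os* among them, and reads in the overlaps were not examined. Downstream of the loop, 13 of 25 epithelial genes were abundant enough to test, of which 2 were higher and 0 lower at an unadjusted p under 0.05, with a median log2 difference of 0.23. That is 2 of 13 higher against 9.3% of all genes, and 0 lower against 10.2%. The median ran from 0.07 (without 200H replicate 3) to 0.38 (without 200H replicate 1) as single libraries were left out. With the length trend removed the epithelial median was 0.12, with 1 higher and 0 lower. Of 20 mesenchymal genes 17 were tested, with 1 higher and 1 lower, and a median of 0.17, which ran from −0.05 (without 200M replicate 3) to 0.25 (without 200H replicate 2). Over all genes tested the median was 0.01. Of 115 genes within 10 Mb of *Zeb1*, 48 were tested, and 3 were higher and 4 lower (against 9.3% and 10.2% of all genes) with a median of −0.02.

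Single genes were taken by smallest p among those whose 200M and 200H libraries did not overlap, with predicted genes left out. On the higher side these were 5 genes whose longest transcripts have 536 to 2069 bases. Differences in bulk tissue can come from fewer or more cells of a type or from less or more RNA per cell, which cannot be told apart. None passed edgeR, and all share an adjusted p of 0.14. *Arl4d*, a small GTPase of the ARF family, was at 7.79, 7.51, 6.02 and 7.15 CPM in 200H and 14.3, 12.3 and 15.7 CPM in 200M, a log2 difference of 0.99 (SE 0.14, unadjusted p 1.59e-05 by edgeR). WT libraries spread over both groups, at 16.9, 8.90, 18.1 and 5.97 CPM. *Mt3*, a brain metallothionein that binds zinc and copper, was at 188, 224, 203 and 194 CPM in 200H and 277, 294 and 317 CPM in 200M. Its log2 difference was 0.56 (SE 0.081, unadjusted p 2.24e-05 by edgeR), and all 4 WT libraries, at 200.2 to 248 CPM, were below the 200M range. *Cst3*, the secreted protease inhibitor cystatin C, was at 1150, 1256, 1099 and 973 CPM in 200H and 1547, 1632 and 1647 CPM in 200M, a log2 difference of 0.53 (SE 0.084). Here too every WT library, at 1109 to 1470 CPM, lay below the 200M libraries.

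*Atp5mpl*, a small subunit of the mitochondrial ATP synthase, was at 44.7, 49.3, 43.7 and 46.0 CPM in 200H against 60.4, 70.8 and 60.0 CPM in 200M, a log2 difference of 0.48 (SE 0.088). *Chchd2*, a protein of the mitochondrial intermembrane space, was at 54.8, 60.3, 54.9 and 55.5 CPM in 200H against 73.7, 68.8 and 78.6 CPM in 200M, a log2 difference of 0.40 (SE 0.073). Each of these 5 genes was raised by DESeq2, with an adjusted p between 2.51e-06 (*Mt3*) and 0.00501 (*Chchd2*). With the trend on longest-transcript length removed (below), the differences were 0.83 for *Arl4d*, 0.35 for *Mt3* and 0.33 for *Cst3*. They were 0.26 for *Atp5mpl* and 0.30 for *Chchd2*. DESeq2 then still raised *Arl4d*, *Mt3* and *Cst3*, but not *Atp5mpl* and *Chchd2*.

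On the lower side stood a signalling receptor, a phospholipase-like gene, a steroid receptor coactivator and zinc finger genes, with longest transcripts of 2117 to 11276 bases. *Notch1*, the receptor of the Notch pathway, was at 35.2, 29.0, 39.7 and 37.0 CPM in 200H and 18.3, 20.3 and 23.2 CPM in 200M. Its log2 difference was −0.76 (SE 0.13, unadjusted p 8.10e-05 by edgeR), and all 4 WT libraries (28.1 to 42.4 CPM) were above the 200M range. *Plcxd3*, a phospholipase C-like gene, showed the largest fold of these 10 genes, 15.1, 14.7, 23.2 and 22.4 CPM in 200H against 10.2, 4.88 and 5.36 CPM in 200M, a log2 difference of −1.48 (SE 0.26). *Ncoa2*, a coactivator of the estrogen, progesterone and glucocorticoid receptors, was at 93.4, 94.4, 102 and 99.98 CPM in 200H and 75.1, 58.4 and 72.2 CPM in 200M. The difference was −0.50 (SE 0.090), and WT libraries held 90.5 to 110.4 CPM. The zinc finger genes *Zfp382* (5.91, 6.39, 9.20 and 7.84 CPM against 3.65, 2.98 and 3.43 CPM) and *Zfp26* (22.5, 25.1, 27.8 and 27.2 CPM against 17.0, 16.6 and 17.5 CPM) were lower by −1.12 and −0.58. The lowest WT value of *Zfp382*, 3.82 CPM, was close to the 200M libraries, whereas the WT range of *Zfp26* was 19.3 to 27.6 CPM. All 5 had an edgeR adjusted p of 0.14 and were lowered by DESeq2, with an adjusted p between 3.30e-05 (*Plcxd3*) and 0.00309 (*Zfp26*). With the length trend removed, the differences were −0.50 for *Notch1*, −1.45 for *Plcxd3* and −0.28 for *Ncoa2*. They were −1.22 for *Zfp382* and −0.29 for *Zfp26*, and DESeq2 then still lowered all but *Zfp26*. Exons of *Notch1* overlap 2 other genes and those of *Zfp26* 1, and the counts do not use strand.

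**Figure D1:**
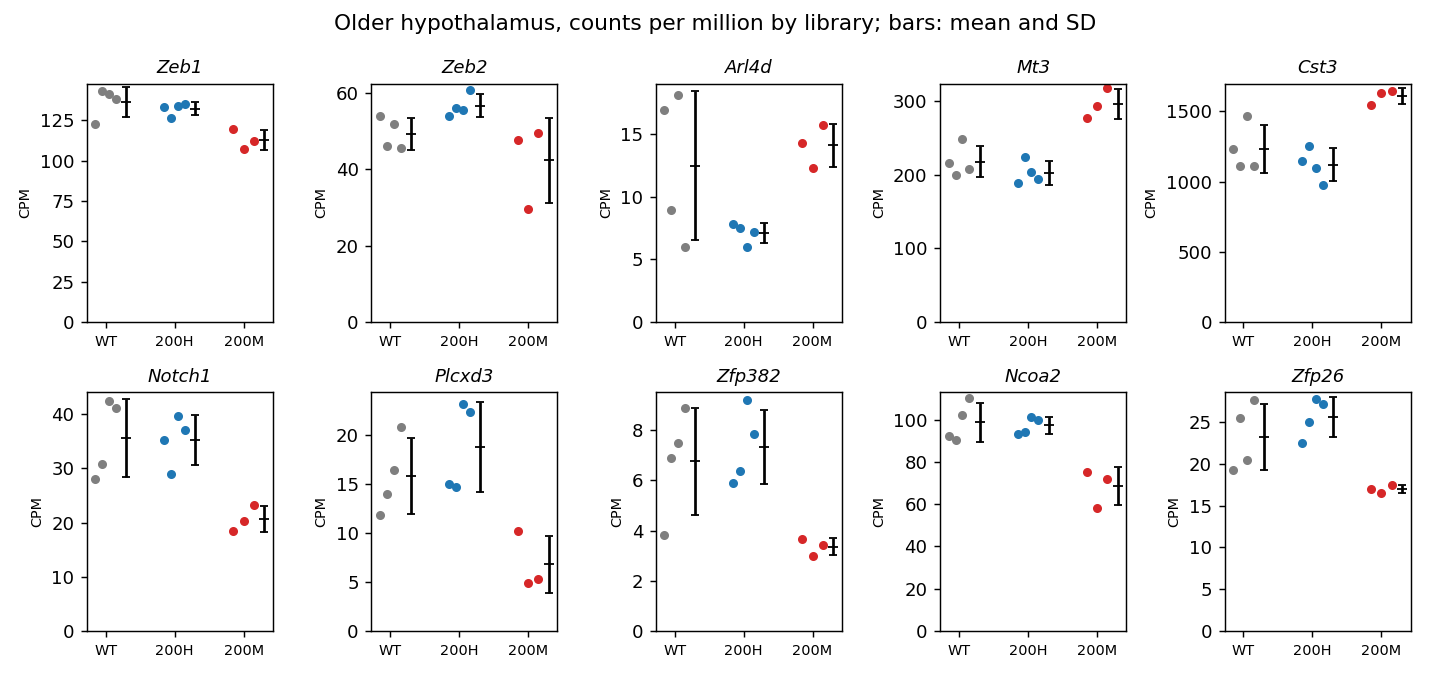
CPM (y axes, from 0) in each older hypothalamus library by genotype (x axes: WT grey, 200H blue, 200M red) for *Zeb1*, *Zeb2* and 8 other genes, with bars for mean and SD (n = 4, 4 and 3). The 8 were taken by smallest p among genes whose 200M and 200H libraries did not overlap. The 200M points of *Cst3* lie between 1547 and 1647 and those of 200H between 973 and 1256, while the WT points of *Arl4d* span 5.97 to 18.1, across both groups.

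Nuclear genes of oxidative phosphorylation, the mitochondrial chain that makes ATP, were higher in 200M almost without exception. Of 83 genes 80 were tested, and 78 had a positive log2 difference, with a median of 0.31 and a range of −0.06 to 0.52. At an unadjusted p under 0.05, 58 were higher (against 9.3% of all genes tested) and 0 lower, and DESeq2 raised 22 (against 0.842%). Their summed level was 9478, 10311, 8933 and 8863 CPM in the 200H libraries and 10515, 11768 and 11131 CPM in the 200M libraries, which did not overlap, and 8891 to 10026 CPM in WT. Examples chosen here after their values were seen are *Uqcrh* of complex III, at 112 to 156 CPM in 200H and 173 to 216 CPM in 200M, *Ndufb10* of complex I, at 112 to 135 and 152 to 176 CPM, and *Cox4i1* of complex IV, at 276 to 371 and 399 to 458 CPM. In contrast, 7 of the 13 proteins encoded by the mitochondrial genome were tested, and these had a median of 0.01, with 1 higher and 0 lower.

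Cytosolic ribosomal protein genes had the same median, 0.31, over 80 tested of 84. At an unadjusted p under 0.05, 39 were higher and 0 lower (against 9.3% and 10.2% of all genes), and DESeq2 raised 5 (against 0.842%). Their summed level overlapped between the genotypes, at 3862, 4287, 3696 and 3343 CPM in 200H and 4167, 5458 and 4560 CPM in 200M, with 200M replicate 2 highest. Without that library the median was 0.19 for ribosomal proteins and 0.22 for oxidative phosphorylation. Both groups consist of short transcripts, with a median longest transcript of 1003 bases for oxidative phosphorylation and 1108 bases for ribosomal proteins, against 3296 bases over all genes tested. With the trend on longest-transcript length removed, the median was 0.13 for oxidative phosphorylation, with 26 higher and 0 lower at an unadjusted p under 0.05, and 0.15 for ribosomal proteins, with 15 higher and 0 lower (against 6.59% and 5.4% of all genes).

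Ion channel, neuronal adhesion and transmitter receptor genes had the lowest medians among the lists of more than 2 tested genes. Of 23 genes for voltage-gated potassium, sodium and calcium channels and their relatives, 18 were lower and 0 higher at an unadjusted p under 0.05 (against 10.2% lower over all genes), and DESeq2 lowered 8 (against 2.28%). The median log2 difference was −0.30. Their summed level was 3192, 3182, 3797 and 3885 CPM in 200H and 3001, 2525 and 2910 CPM in 200M, so that the groups did not overlap, while the lowest WT library stood at 3116 CPM. *Kcnma1*, the large-conductance calcium-activated potassium channel, was at 30.01, 29.3, 55.4 and 43.3 CPM in 200H and 24.7, 15.1 and 19.6 CPM in 200M, a log2 difference of −0.99 (SE 0.23, edgeR adjusted p 0.14). *Scn2a*, a sodium channel of the axon initial segment, was at 267, 261, 320.0 and 297 CPM in 200H and 243, 151 and 206 CPM in 200M. *Kcna1*, a delayed rectifier potassium channel, had a log2 difference of −0.94, and *Kcnj3*, an inward rectifier, one of −0.01.

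Of 21 neuronal adhesion and scaffold genes, 16 were lower and 0 higher at an unadjusted p under 0.05 (against 10.2% and 9.3% of all genes). DESeq2 lowered 8 (against 2.28%), and the median was −0.33. These shares also stand beside the counts of the receptor and vesicle genes below. The summed level was 4759, 4640, 5577 and 5466 CPM in 200H and 4422, 3590 and 4066 CPM in 200M. The presynaptic neurexin *Nrxn2* was at 363, 380.0, 473 and 474 CPM in 200H and 315, 320 and 320 CPM in 200M. Its postsynaptic partner *Nlgn1* was lower (−0.38), while the log2 difference of *Nlgn3* was 0.10. Of 22 transmitter receptor genes, 8 were lower and 0 higher, and DESeq2 lowered 5, with a median of −0.24, and −0.15 without 200M replicate 2. *Chrna7*, the α7 nicotinic acetylcholine receptor, was at 16.3, 12.8, 16.5 and 14.7 CPM in 200H and 10.4, 7.45 and 8.50 CPM in 200M, a log2 difference of −0.78 (SE 0.15), and stood at −0.81 with the length trend removed. Of 20 genes of the synaptic vesicle cycle, 6 were lower and 0 higher, with a median of −0.12 (−0.08 without 200M replicate 2), among them the giant active-zone scaffolds *Bsn* (−0.51) and *Pclo* (−0.55), and the short *Vamp2* (0.07) and *Snap25* (0.05) did not follow them.

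These neuronal groups are long. Their median longest transcript was 8386 bases for channels, 7813 for adhesion genes and 5324 for receptors. With the length trend removed the medians were −0.15, −0.12 and −0.15, and 8, 7 and 3 genes were lower at an unadjusted p under 0.05, against 5.4% of all genes. General neuronal markers, which are closer to the average in length, had a median of −0.07, with 1 higher and 3 lower of 16 (against 9.3% and 10.2% of all genes). Their median was −0.06 with the length trend removed and −0.0015 without 200M replicate 2.

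**Figure D2:**
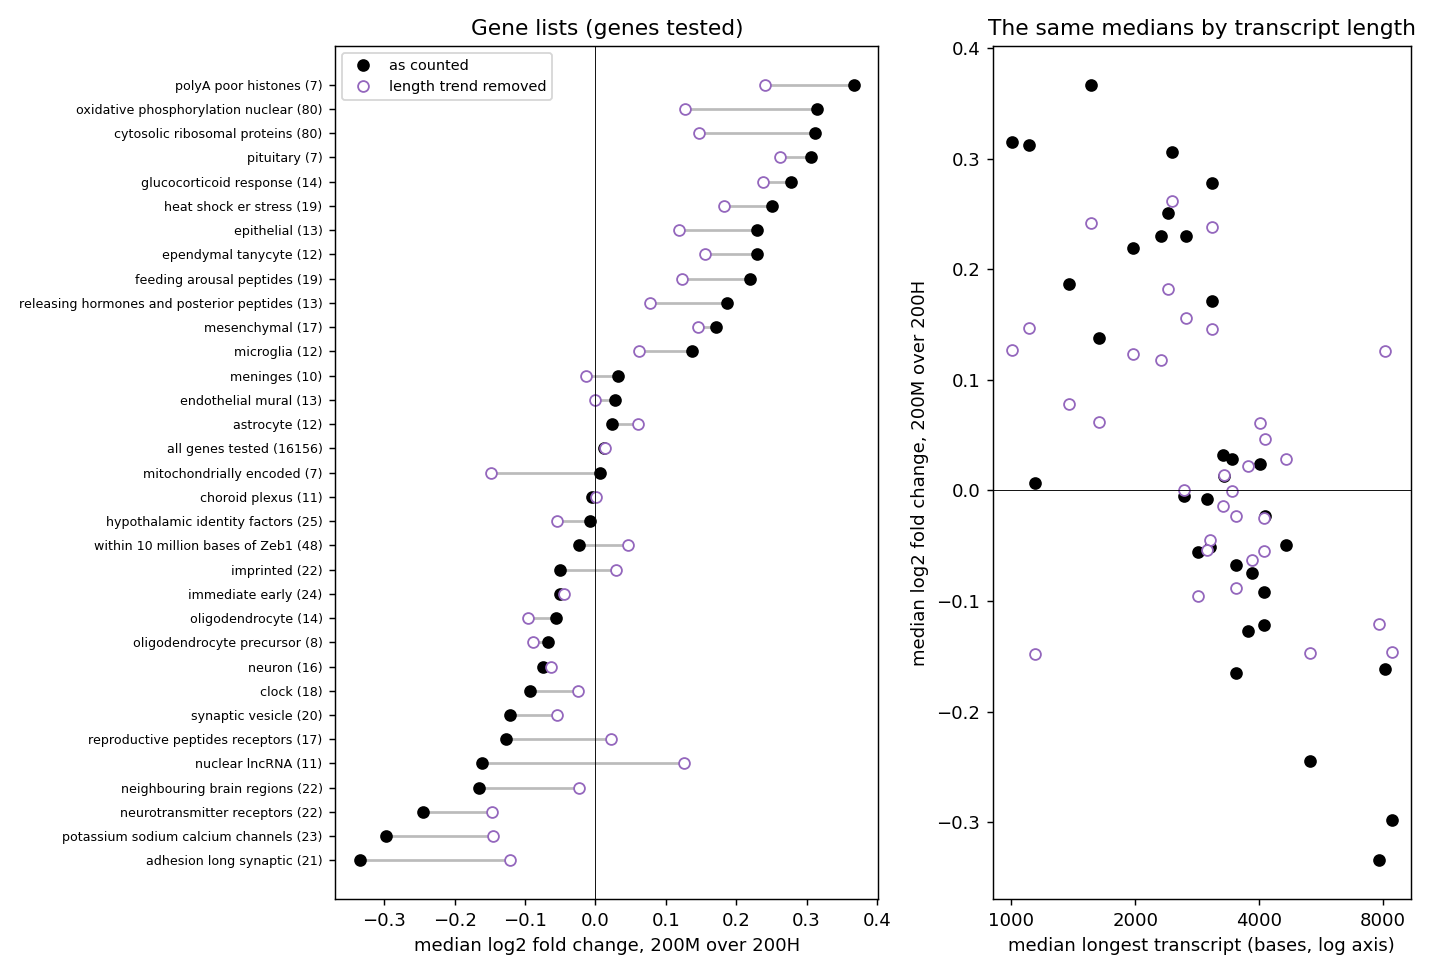
Left, median log2 fold change (200M over 200H, x axis) of each gene list, with its number of genes tested in parentheses, as counted (filled) and with the trend on longest-transcript length removed (open). Right, the same medians (y axis) against the median longest transcript of the list in bases (x axis, log axis). Oxidative phosphorylation moves from 0.31 to 0.13 and adhesion genes from −0.33 to −0.12, while glucocorticoid response genes move from 0.28 to 0.24. The blood list, at 0.81, and the 2 *Zeb* genes are not drawn.

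Stress genes were also higher in 200M. Of 19 heat shock and endoplasmic reticulum chaperone genes, with a median longest transcript of 2399 bases against 3296 over all genes, 12 were higher and 0 lower at an unadjusted p under 0.05 (against 9.3% and 10.2% of all genes), DESeq2 raised 5 (against 0.842%), and the median was 0.25. With the length trend removed it was 0.18, with 10 higher (against 6.59%) and 0 lower. *Hspa5*, the chaperone BiP, was at 499, 527, 479 and 535 CPM in 200H and 580.0, 631 and 631 CPM in 200M. *Manf*, a secreted stress factor of the same compartment, was at 52.9, 55.5, 45.7 and 52.8 CPM in 200H and 62.6, 69.8 and 71.8 CPM in 200M. The WT libraries did not separate from 200M here, since their summed level of the list ran from 2947 to 3672 CPM, against 2904 to 3057 CPM in 200H and 3290 to 3559 CPM in 200M.

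Genes known to be induced by glucocorticoids, the adrenal stress steroids, had a median of 0.28 over 14 tested of 15. At an unadjusted p under 0.05, 7 were higher and 0 lower (against 9.3% and 10.2% of all genes), and DESeq2 raised 2 (against 0.842%). The median was 0.24 with the length trend removed, with the count of higher genes again 7 (against 6.59% of all genes), and 0.43 without 200M replicate 2. *Mt1*, a metallothionein, was at 174, 190.1, 183 and 157 CPM in 200H and 216, 237 and 256 CPM in 200M. *Tsc22d3*, the glucocorticoid-induced leucine zipper, was at 91.6, 103, 115 and 94.0 CPM in 200H and 155, 112 and 142 CPM in 200M, which overlapped by 1 library. *Fkbp5*, a further gene of the list, had a log2 difference of 0.02. WT libraries spanned both groups, with a summed level of 553 to 904 CPM beside 531 to 606 CPM in 200H and 660 to 778 CPM in 200M. Of 24 immediate early genes, which neurons switch on upon firing, 0 were higher and 0 lower (against 9.3% and 10.2% of all genes), with a median of −0.05.

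Markers of cell types are given with their counts at an unadjusted p under 0.05, beside 9.3% of all genes higher and 10.2% lower. Microglial genes had a median of 0.14, with 5 of 12 higher and 0 lower, and with the length trend removed a median of 0.06, with 1 higher and 0 lower. When single libraries were left out the median ran from 0.06 (without 200H replicate 3) to 0.20 (without 200H replicate 1). The 5 were *Aif1*, *Ctss* and the complement genes *C1qa*, *C1qb* and *C1qc*, while *Cx3cr1*, *Csf1r* and *Tmem119* had log2 differences of −0.02, −0.02 and 0.03. Astrocyte genes had a median of 0.02, with 4 higher, *Aldoc* (0.32), *S100b* (0.33), *Ntsr2* and *Aldh1l1*, and 1 lower, *Fgfr3*, while *Gfap* was at −0.01. Oligodendrocyte genes (median −0.06, 1 higher and 1 lower of 14), their precursors (−0.07, 0 and 2 of 8), endothelial and mural genes (0.03, 1 and 0 of 13) and meningeal genes (0.03, 0 and 0 of 10) had medians near that of all genes. Ependymal and tanycyte genes had a median of 0.23, with 2 higher and 0 lower of 12, and leaving out 200H replicate 4 gave a median of 0.11, leaving out 200M replicate 2 one of 0.04. The 2 were genes of motile cilia or dynein (*Rsph1* and *Dynlrb2*). The summed blood markers were 31.7 to 149 CPM in 200H and 76.7 to 209 CPM in 200M, with 6 of 7 tested, a median of 0.81 and 1 higher, and the median ran from 0.43 (without 200M replicate 1) to 1.27 (without 200H replicate 1). Of 13 pituitary markers 7 were tested, with 3 higher and 0 lower, and a summed level of 399 to 474 CPM in 200H and 465 to 606 CPM in 200M, most of it *Chgb*, which neurons also make. Their median was 0.31, and 0.95 without 200H replicate 4 and 0.17 without 200M replicate 2. *Cga*, the hormone α subunit, had 30, 31, 5 and 5 counts in 200H and 25, 94 and 42 in 200M, and *Pou1f1* was at 0 in 5 of the 7 libraries, at 1 in another and at 3 in 200H replicate 4. Their part in the results was not tested.

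Hypothalamic hormone and receptor genes were examined next, since the cohort was compared for fertility. *Gnrh1*, which encodes GnRH and is made by a few scattered neurons, was the lowest of them relative to 200H. Its counts were 25, 27, 16 and 17 in the 200H libraries and 10, 10 and 14 in the 200M libraries, or 2.24, 2.16, 1.34 and 1.69 CPM against 0.936, 0.828 and 1.00 CPM. The groups did not overlap, and the WT libraries held 34, 39, 26 and 41 counts (2.14 to 3.54 CPM). The log2 difference was −0.99 (SE 0.29, unadjusted p 0.00522 and adjusted p 0.145 by edgeR), DESeq2 gave an adjusted p of 0.187, and the difference ranged from −1.19 to −0.90 over 17 alternatives, of which none passed. The longest *Gnrh1* transcript has 486 bases, so the gene runs against the trend by which short transcripts were higher. At 10 to 27 counts per library the value carries a large counting error.

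Of the steroid receptors, *Pgr*, the progesterone receptor, was at 32.1, 36.6, 44.6 and 42.8 CPM in 200H and 30.3, 27.6 and 29.8 CPM in 200M. The log2 difference was −0.41 (SE 0.12, edgeR adjusted p 0.145), WT libraries held 41.9 to 46.2 CPM, and with the length trend removed the difference was −0.22. *Esr1*, the estrogen receptor α, was at 23.7, 25.3, 33.3 and 30.5 CPM in 200H and 29.2, 25.1 and 22.9 CPM in 200M, a difference of −0.13 (SE 0.13, edgeR adjusted p 0.631) that changed sign with the length trend removed (0.04). The prolactin receptor *Prlr* (−0.43), chosen after its values were seen, was lowered by DESeq2 with an adjusted p of 0.0464, and with the length trend removed it stood at −0.16. *Tac2*, the neurokinin B of the neurons that pace GnRH release, was at 40.04, 47.6, 40.4 and 39.2 CPM in 200H and 44.9, 71.2 and 48.1 CPM in 200M. Its log2 difference was 0.40 (SE 0.15, edgeR adjusted p 0.188), and the groups overlapped. Without 200M replicate 2 the difference was 0.15, and with the length trend removed it was 0.18. *Kiss1* was not analysed here. In all, 17 of 18 reproductive peptide and receptor genes were tested. At an unadjusted p under 0.05, 3 were higher and 5 lower (against 9.3% and 10.2% of all genes). The median was −0.13, which was −0.05 without 200H replicate 3 and without 200M replicate 3, and 0.02 with the length trend removed.

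Of 13 genes of releasing hormones, posterior pituitary peptides and dopamine neurons, 11 had a positive log2 difference, and 4 were higher (*Sst*, *Th*, *Avp* and *Ddc*, against 9.3% of all genes) and 0 lower at an unadjusted p under 0.05. The median was 0.19, and 0.10 without 200M replicate 2. With the length trend removed the median was 0.08, with 2 higher (against 6.59% of all genes) and 0 lower. *Sst*, somatostatin, was at 149, 186, 151 and 135 CPM in 200H and 167, 298 and 201 CPM in 200M, a log2 difference of 0.53 (SE 0.17, edgeR adjusted p 0.157), and 0.24 without 200M replicate 2. *Avp*, vasopressin, was at 221, 287, 230.1 and 214 CPM in 200H and 294, 321 and 253 CPM in 200M, a difference of 0.29 (SE 0.11, edgeR adjusted p 0.199). With the length trend removed the differences were 0.30 for *Sst* and 0.08 for *Avp*. Both overlapped between the groups, and the WT libraries held 161 to 174 CPM of *Sst* and 164 to 364 CPM of *Avp*. The differences were 0.08 for *Oxt* (oxytocin), −0.19 for *Crh* (corticotropin-releasing hormone), 0.16 for *Trh* (thyrotropin-releasing hormone) and 0.42 for *Ghrh* (growth hormone-releasing hormone, 0.05 without 200M replicate 2), with edgeR adjusted p between 0.342 and 0.748. *Th* and *Slc6a3*, genes of dopamine neurons, differed by 0.77 and 1.53, but without 200M replicate 1 by 0.22 and −0.05.

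Among 19 feeding and arousal peptide genes tested of 20, 6 were higher and 0 lower at an unadjusted p under 0.05 (against 9.3% and 10.2% of all genes). The median was 0.22, and 0.04 without 200M replicate 2. With the length trend removed the median was 0.12, with 3 higher (against 6.59%) and 0 lower. The examples here were chosen after their values were seen. *Npy*, the appetite-driving neuropeptide Y, was at 20.2, 19.7, 16.5 and 14.1 CPM in 200H and 26.2, 47.9 and 21.1 CPM in 200M, a log2 difference of 0.86 (SE 0.24), which DESeq2 raised with an adjusted p of 0.0241. *Agrp*, made by the same arcuate neurons, was at 4.57, 4.16, 3.68 and 3.08 CPM in 200H and 7.77, 10.6 and 4.21 CPM in 200M, a difference of 0.96 (SE 0.28, edgeR adjusted p 0.145). WT libraries held 16.4 to 30.6 CPM of *Npy* and 3.09 to 7.64 CPM of *Agrp*, ranges that overlapped 200H and 200M alike. 200M replicate 2 was the highest for *Npy* and *Agrp*, and for *Vip*, *Sst* and *Tac2*. Without it, the differences were 0.42 for *Npy* and 0.60 for *Agrp*. With every library kept and the length trend removed, they were 0.62 for *Npy* and 0.73 for *Agrp*.

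**Figure D3:**
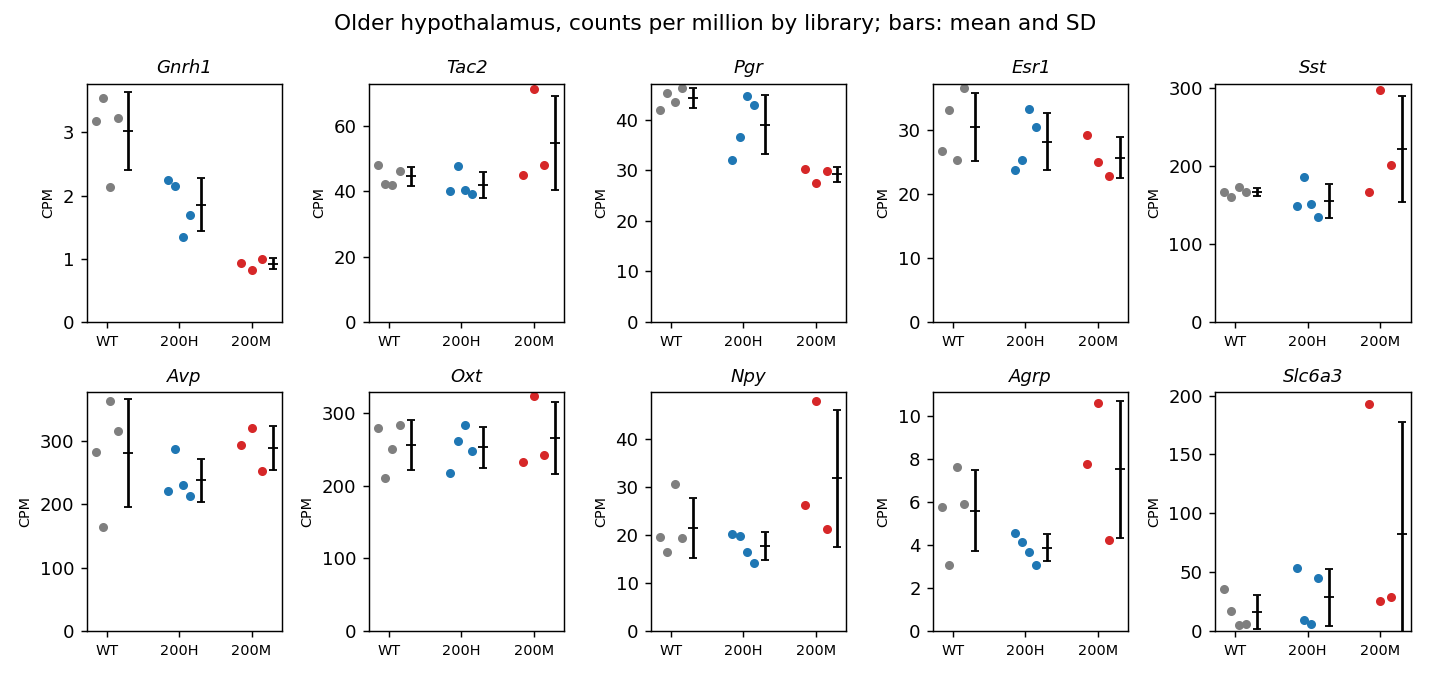
CPM (y axes, from 0) of 10 hormone, peptide, receptor and transporter genes in each older hypothalamus library by genotype (x axes: WT grey, 200H blue, 200M red), with bars for mean and SD (n = 4, 4 and 3). *Gnrh1* lies at 0.828 to 1.00 CPM in 200M and 1.34 to 2.24 CPM in 200H, the 200M point of replicate 2 is the highest for *Npy*, *Agrp*, *Sst* and *Tac2*, and that of replicate 1 reaches 192 CPM for *Slc6a3*.

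Transcript length ordered the differences between 200M and 200H over the whole table. The 12662 genes averaging 50 counts or more were divided into 10 classes of equal size by the longest transcript that GENCODE M21 annotates. In the class of shortest transcripts (57 to 1579 bases) the median log2 difference was 0.25, 91.95% of genes were higher in 200M, and 42.3% were higher at an unadjusted p under 0.05 and 0.789% lower. In the class of longest transcripts (7154 to 123179 bases) the median was −0.25, 7.42% of genes were higher in 200M, and 49.7% were lower at an unadjusted p under 0.05 and 0.474% higher. The medians between fell at each step, from 0.16 in the next shortest to −0.15 in the next longest class. DESeq2 raised 74 and lowered 0 genes of the shortest class, and raised 0 and lowered 218 of the longest. Its raised genes had a median longest transcript of 1384 bases and its lowered genes 7866 bases, against 3296 bases over all genes.

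**Figure D4:**
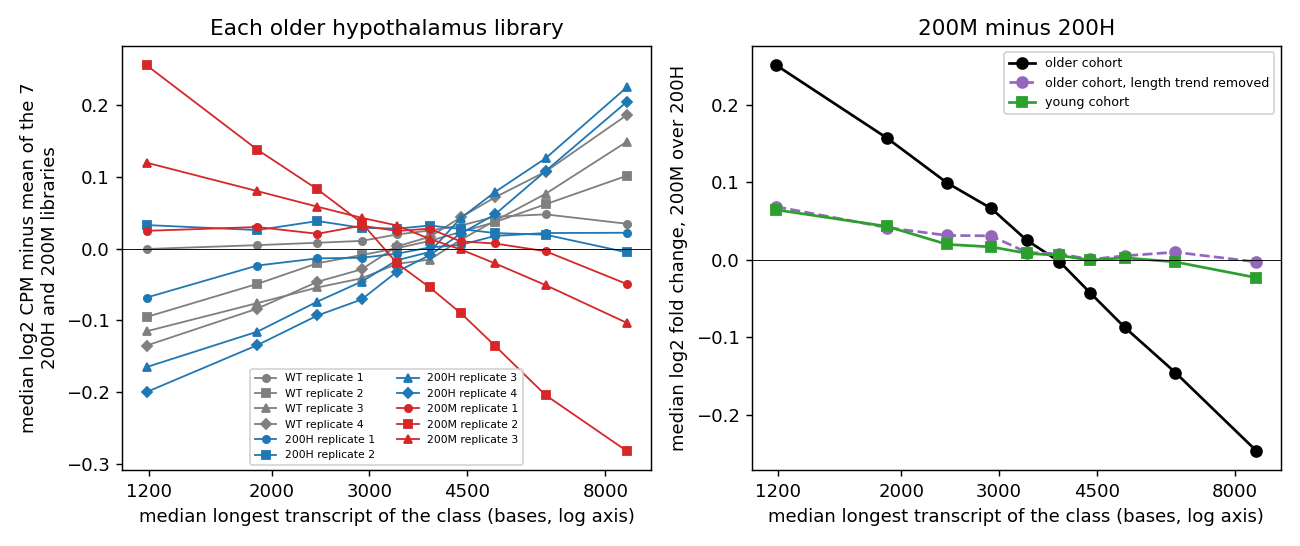
Genes in 10 classes of longest-transcript length (x axes, median of the class in bases, log axes). Left, median log2 CPM of each library minus the mean of the 7 libraries of 200H and 200M; right, median log2 difference of 200M from 200H in the older cohort as counted, in the older cohort with the trend removed and in the young cohort (y axes). The older median log2 difference falls from 0.25 in the shortest class to −0.25 in the longest, and among libraries 200M replicate 2 is highest at the short end and lowest at the long end.

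Expressed as a slope across genes, the log2 difference fell by 0.15 for each doubling of the longest transcript (−0.153, SE 0.0550 by a jackknife over the 7 libraries), and length held 33.4% of the variance between genes. The slope was −0.124 on the merged exon length, −0.0852 on the median transcript length and −0.0509 on the span of the gene on the chromosome. In a joint model, 1 SD of longest-transcript length went with a log2 difference of −0.12, 1 SD of gene span with −0.03, and 1 SD of GC content and of mean expression with −0.01 and 0.01. Leaving out each library in turn gave slopes of −0.183 to −0.110 on the longest transcript, the least steep without 200M replicate 2.

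The slope was then taken within each library, against the mean of the 7 libraries of 200H and 200M. It was 0.0259, −0.00792, 0.128 and 0.118 in 200H and −0.0243, −0.172 and −0.0679 in 200M, so that every 200M library lay below every 200H library. 200H replicates 1 and 2 were near 0 and close to 200M replicate 1, and 200M replicate 2 was the most extreme. The means were 0.0661 ± 0.0676 (SD, n = 4) and −0.0882 ± 0.0761 (SD, n = 3), and an exact two-sided permutation test over all 35 assignments of the genotypes gave p = 0.0571, the smallest value the design allows. The WT libraries were at 0.0194, 0.0711, 0.0813 and 0.107. The mean slope of 200H minus that of WT was −0.00355 (exact permutation p = 0.971), and that of 200M minus WT was −0.158 (exact permutation p = 0.0571, again the smallest possible). These comparisons share libraries. What set the slope of a library was not tested.

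With each library's trend on the longest transcript taken out before the test, edgeR again called 0 genes, with 1065 genes (6.59%) higher and 872 (5.4%) lower at an unadjusted p under 0.05. DESeq2 then called 137 genes, 61 raised (0.378%) and 76 lowered (0.47%). Of its first 136 raised genes 28 were still raised, and of 369 lowered genes 71 were still lowered. Genes still called, chosen after their values were seen, include *Timp4*, an inhibitor of matrix proteases, at 56.3, 53.4, 57.0 and 53.8 CPM in 200H and 73.0, 67.0 and 70.8 CPM in 200M (log2 difference 0.36, and 0.48 with the trend removed). *Clk1*, a kinase of splicing factors, was at 158, 163, 172 and 160.4 CPM in 200H and 204, 204 and 221 CPM in 200M (0.37 and 0.45). *Slc6a9*, the glycine transporter, was at 70.3, 63.4, 74.2 and 67.6 CPM in 200H and 50.2, 51.8 and 47.2 CPM in 200M (−0.46 and −0.47). *Trpc5*, a cation channel, was at 20.6, 16.9, 27.4 and 20.7 CPM in 200H and 13.0, 7.20 and 9.85 CPM in 200M (−1.09 and −1.07). For these 4 genes no 200M library overlapped a 200H library, and the difference was as large or nearly as large with the trend removed. Removing the trend also takes out any change that itself goes with length, so both sets of values are given side by side.

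**Figure D5:**
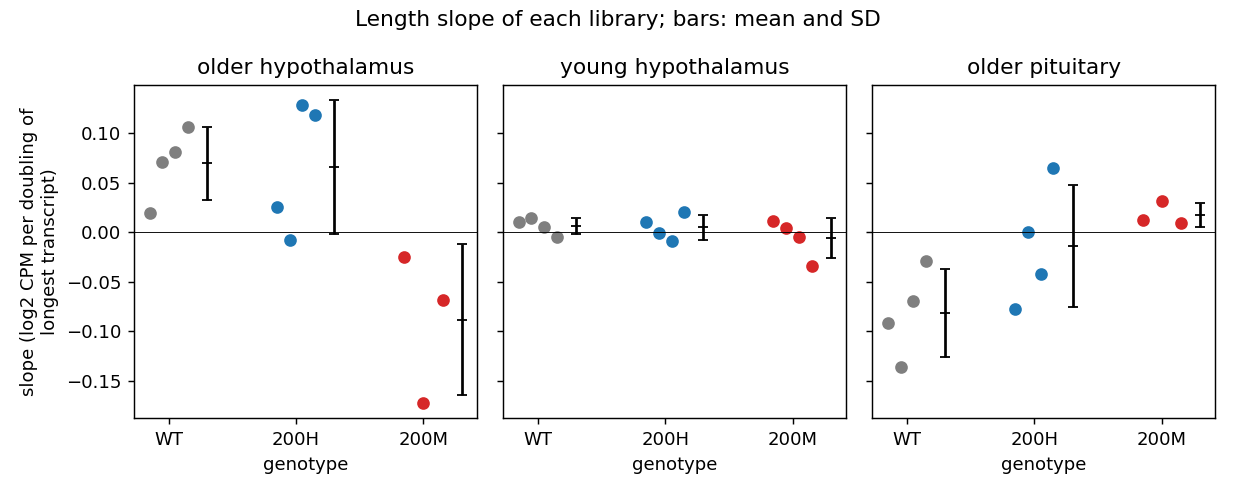
Slope of log2 CPM on longest-transcript length in each library (y axis, per doubling of length, against the mean of the 200H and 200M libraries of its tissue and cohort) by genotype (x axis), in older hypothalamus, young hypothalamus and older pituitary, with bars for mean and SD. In older hypothalamus the 3 libraries of 200M are at −0.172 to −0.0243 and the 4 of 200H at −0.00792 to 0.128, while in young hypothalamus every library is within 0.05 of 0.

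The same genotypes were also compared in hypothalamus of young virgin females aged 8 to 12 weeks, with 4 libraries each. Their RNA was depleted of rRNA and sequenced with strand kept, so age, breeding history and library chemistry cannot be told apart between the cohorts. They held 3321845 to 5143128 counts, and edgeR called 0 of 14812 genes, with 682 (4.6%) at an unadjusted p under 0.05. *Zeb1* differed by −0.11 (SE 0.080, edgeR adjusted p 0.95), and the difference between cohorts was −0.09 (edgeR adjusted p 0.814). *Notch1*, lower in the older 200M libraries, differed by 0.30 in the young cohort. *Cst3* differed by −0.12 and *Plcxd3* by −0.16, and *Gnrh1* was below the filter. The DESeq2 calls of the older cohort had the same sign in young hypothalamus at 51.5% of 495 genes, beside 54.0% of all 12979 genes tested in both. None of them passed edgeR in the young cohort, but edgeR called no gene there or in the older cohort, so this adds no separate evidence.

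No gene passed the edgeR test of a difference between the cohorts, among 12979 tested, with 1554 (12%) at an unadjusted p under 0.05. *Notch1* was closest, with an older-minus-young log2 difference of −1.04 (adjusted p 0.0642). DESeq2 called 154 genes in this test. The length slope across genes was −0.0128 on the longest transcript in young hypothalamus. The difference between the mean slopes of 200M and 200H was −0.0109 there (exact permutation p = 0.457) and 0.0313 in older pituitary (exact permutation p = 0.457), against −0.154 in older hypothalamus. The older and young differences themselves differed by −0.143, with an exact permutation p of 0.0767 over 2450 arrangements.

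The medians of the gene groups in young hypothalamus were 0.04 for oxidative phosphorylation, 0.15 for ribosomal proteins, −0.06 for channels, −0.05 for adhesion genes, −0.03 for heat shock and endoplasmic reticulum genes and −0.17 for glucocorticoid response genes. The last has the opposite sign to the 0.28 of the older cohort, and *Tsc22d3* differed by −0.40 in young hypothalamus against 0.44 in older. These medians were not tested against each other.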

How the data were processed

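The authors deposited raw counts per Ensembl gene, 1 table per pair of genotypes. Older hypothalamus RNA was poly(A)-selected, made into unstranded libraries, sequenced from 1 end, aligned by the authors with STAR to GRCm38 and counted with HTSeq. Young libraries were stranded, rRNA-depleted and counted by the authors with featureCounts. The deposited fold changes, p-values and adjusted p-values of the authors' own test were not used. The 18 columns found in 2 tables agreed at every gene. Of 49585 gene IDs 99.48% were in GENCODE M21 (GRCm38), which gave names, coordinates and transcript lengths.

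Groups came from the labels. The study describes the libraries as biological replicates, and no 2 were copies (chi-square per degree of freedom 2.87 or more). The gene lists and examples were chosen with earlier results of these data known. Counts of the 7 libraries were tested with edgeR 4.0.16 (R 4.3.3), TMM scaling, filterByExpr and Benjamini-Hochberg adjustment at 0.05. CPM used TMM factors over 11 libraries. Spread in text is SD, and SE of a log2 difference is from the fit. Slopes used genes averaging 50 counts or more. Removed trends were splines with 5 degrees of freedom per library, given as offsets. The scripts were tested on simulated data.

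Named by rule were the *Zeb* genes, the 5 higher and 5 lower genes of smallest p with separate groups (no gene passing), and 10 hormone genes and receptors. Other genes were chosen after their values were seen. *Gm13648* and *Gm15884*, listed with the *Zeb* loop, were below the filter. Alternatives were DESeq2 1.42.0, limma 3.58.1 (voom with sample weights), other scaling, no filter, all 11 libraries, a replicate block, trends on length and GC, and leaving out each library. Those on the longest transcript, the robust fit and DESeq2 with libraries left out were chosen after seeing the data.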

Additional observations from a re-analysis of the deposited data

Results flagged for a closer look

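Of 121 groups of 4 libraries examined, 6 had a library far from the other 3 by Dixon's ratio, and chance alone gives about 1 in 20, or 6. 200H replicate 2 was highest for *Tac2* (47.6 CPM, the others 39.2 to 40.4 CPM) and for *Chchd2* (60.3 CPM, the others 54.8 to 55.5 CPM). 200H replicate 4 was highest for the summed nuclear long non-coding RNAs, transcripts kept in the nucleus, at 17890 CPM (the others 12910 to 13520 CPM), and for the share of counts in the 5 features above, 0.316% (the others 0.0164 to 0.0373%). WT replicate 1 was lowest for the nuclear long non-coding RNAs, at 11240 CPM (the others 15280 to 15370 CPM). In young hypothalamus, WT replicate 4 had the lowest slope on median transcript length, −0.00220 (the others 0.00930 to 0.0111). The comparison of 200M with 200H without 200H replicate 4 is among the values given below.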

How the results depend on the processing

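The count of changed genes was 0 with edgeR under other scaling, all 11 libraries and each removed length or GC trend. It was also 0 with the robust fits (smallest adjusted p 0.0782 and 0.0626) and with each library left out (2074 to 3679 genes at an unadjusted p under 0.05). It was 505 with DESeq2, 23 with limma-voom, 137 with DESeq2 and the longest-transcript trend removed, and 57 to 1009 with DESeq2 and a library left out (421 without 200H replicate 1, 821 without 200H replicate 2, 81 without 200H replicate 4 and 128 without 200M replicate 3). Without the filter edgeR called 1325 of 31108 genes, with its prior degrees of freedom estimated as infinite against 6.41, and the cause was not tested. Same-numbered libraries deviated together only weakly (correlations 0.0541, 0.0157 and −0.00145). The labels do not say whether they share a litter or a batch, and these correlations cannot decide it. The replicate block called 1 gene, *Slc6a3*, and 1 with the length trend also removed. Of the 21 genes named besides *Zeb1*, 10 passed with DESeq2 (against 3.13% of all genes), 15 without the filter and 6 with limma-voom. The 10 that passed with DESeq2 were those named for their smallest p in these same libraries, so this tally adds no separate evidence. The sign reversed for *Esr1* (0.0380) and *Trh* (−0.00972) with the longest-transcript trend removed. *Oxt* reversed to −0.0254 with the length trend removed, −0.0151 with length and GC, −0.0229 with length and the replicate block and −0.145 with the longest-transcript trend. Leaving out a library gave −0.0930 to 0.179 for *Oxt* and −0.307 to 0.00851 for *Crh*, reversed without 200M replicate 2. The number of gene lists with a median beyond 0.2 in either direction was 14, and 4 with the longest-transcript trend removed and 9 to 17 with a library left out (9 without 200M replicate 2). Of 34 lists 19 kept their sign throughout. Genes differing between cohorts numbered 154 with DESeq2, 1 with the length trend removed and 0 to 62 with a library left out. Slopes on length kept their sign throughout. With 3 libraries against 4, small differences lie below what the design can call.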

Other observations

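Histone transcripts, many of which lack a poly(A) tail, were examined because the older libraries were poly(A)-selected. Of 12 histone genes 7 were tested, all with a positive log2 difference, with a median of 0.37 and 0.24 with the longest-transcript trend removed. 2 were higher and 0 lower at an unadjusted p under 0.05 by edgeR (against 9.3% and 10.2% of all genes), and DESeq2 raised 2 (against 0.842%). The edgeR shares of 9.3% higher and 10.2% lower also stand beside the counts of the lists that follow. Of 12 nuclear long non-coding RNAs 11 were tested, with 0 higher and 0 lower and a median of −0.16, which was 0.13 with the trend removed and −0.01 without 200H replicate 4. Circadian clock genes had a median of −0.09 (−0.15 to −0.05 with a library left out), with 15 of 18 lower in 200M, of which 3 had an unadjusted p under 0.05, and 1 higher. Their summed level as counted was 1248 to 1277 CPM in 200M, 1289 to 1433 CPM in 200H and 1364 to 1457 CPM in WT, so that the 200M libraries lay below every other library. With the longest-transcript trend removed the clock median was −0.03, with 0 higher and 2 lower at an unadjusted p under 0.05 by edgeR. Imprinted genes had a median of −0.05, with 2 higher and 3 lower of 22, choroid plexus genes −0.01, with 1 higher and 2 lower of 11, and genes of neighbouring brain regions −0.17 (−0.04 without 200M replicate 2), with 1 higher and 2 lower of 22.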
